A study of Homo sapiens with 9 samples.

Results

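A set of 81 genes whose newly made RNA was higher soon after the loss of SOX9, and still higher a day later, is described here. The members were chosen by level and by size of change. T>C reads are the sequencing reads that carry a T>C conversion, and they are taken here as RNA made during the labelling. They were divided by the library's sum of T>C reads and scaled to CPM (T>C CPM). A member had a mean of at least 3 T>C CPM over the 9 libraries. Its log2 ratio of T>C CPM + 0.5 to the 0h sample of the same culture was at or above 0.3 in all 3 cultures at 3h and in all 3 at 24h. Of 18970 genes in the tables, 10731 reached the level and 85 of these reached the ratios. SOX9, CEBPD, INSIG1 and JUNB were left out by name, which gave 81 members. LHX9 was on the same list of names but did not meet the ratios, since its lowest log2 ratio was 0.25.

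The cultures derive from the human embryonic stem cell line H9, which is established, and had been turned into cranial neural crest cells (CNCCs) in culture. Both copies of SOX9 carried a tag with an FKBP12-based degron, mNeonGreen and V5. The small molecule dTAGV-1 brings such a tagged protein to a ubiquitin ligase for degradation. The 0h, 3h and 24h groups are times of dTAGV-1 treatment, with 3 samples each, and each group held the same cultures, S9CC13_R6, S9CC47_R5 and S9CC47_R6. These names join a genotype label, S9CC13 or S9CC47, to a differentiation batch, R5 or R6. The 2 genotypes are separate clones of the tagged line, so each is 1 clone, and batch R5 held only 1 culture. All samples list 500 nM dTAGV-1, the 0h samples included, while the treatment protocol gives DMSO as the vehicle control. All cells were given 100 uM 4-thiouridine (4sU) for 2 h, so the label covered the last 2 h of each treatment. No sample lacked the label, so any T>C reads that arise without it were not measured. The labelled SOX9 protein level is 100% at 0h and 0% at 3h and 24h. Values below are given in the order S9CC13_R6, S9CC47_R5 and S9CC47_R6.

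SOX9 is a transcription factor of the SOX family, which bend DNA, and it acts in neural crest, in cartilage and in glia. Cranial neural crest cells migrate from the edge of the neural plate and give rise to much of the facial skeleton, to peripheral nerve and glia, and to pigment cells. In SLAM-seq, 4sU enters RNA as it is made and is alkylated after extraction, so that reverse transcription reads it as a T>C change. Reads with such a change sample new RNA. Reads without one (unconverted reads) come from RNA made before the labelling and from new RNA in which no conversion was read. The size of each part was not measured.

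Total reads per library ranged from 16955633 to 28782678 and T>C reads from 3130673 to 5475800. No library was left out. The cells carried neural crest markers: 18 of the 20 listed genes had a mean of at least 1 CPM in total reads, and DLX5 and DLX6 were near 0, with means of at most 0.0197 and 0.0749 CPM. The summed total CPM of that list lay between 4070 and 4250 in the 0h group, 4600 and 4610 in the 3h group, and 5250 and 5700 in the 24h group. MSX1, a member, is on the list and had a mean of 625 total CPM at 0h and 1460 at 24h. SOX9 itself had 2300 to 2410 T>C CPM in the 0h group, 3580 to 4440 in the 3h group and 4850 to 5740 in the 24h group. dTAGV-1 acts on the protein, so this RNA does not check the depletion.

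The first members to be described are the 12 whose lowest log2 ratio of the 6 was highest. They encode proteins of the cell surface and matrix (LGALS3, COL6A1, ITGA8, ICAM1), secreted factors (FGF18, IGFBP5), regulators of transcription and of the cell cycle (RORB, HIC1, CDKN1C), an activator of a small GTPase (FGD5), a sulfotransferase (CHST15) and FAM126A, now named HYCC1. Promoter sequences are shown for 4 of them, since the rule says nothing about what the members share in DNA sequence. LGALS3 and RORB are the pair with the highest lowest ratio, FGF18 holds the SOX motif and ICAM1 holds a TATA box. Each runs from 250 bases before to 50 after the start of the gene in RefSeq (GRCh38.p14), 5′ to 3′ on the strand of the gene. Capitals mark the SOX motif ACAATG, the TATA box TATAAA and the GC box GGGCGG on either strand, and the search for AP-1 (TGANTCA) and CRE (TGACGTCA) motifs found none in these 4.
The LGALS3 window is chr14:55129002-55129301 on the plus strand and starts downstream of the first base of the gene in GENCODE, 55124110.
LGALS3: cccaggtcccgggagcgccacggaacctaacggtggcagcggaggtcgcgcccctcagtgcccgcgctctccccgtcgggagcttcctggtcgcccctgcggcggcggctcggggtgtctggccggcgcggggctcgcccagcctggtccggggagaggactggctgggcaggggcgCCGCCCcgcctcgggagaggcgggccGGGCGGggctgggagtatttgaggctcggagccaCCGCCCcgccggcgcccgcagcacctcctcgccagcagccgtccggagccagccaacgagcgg
The RORB window is chr9:74497085-74497384 on the plus strand.
RORB: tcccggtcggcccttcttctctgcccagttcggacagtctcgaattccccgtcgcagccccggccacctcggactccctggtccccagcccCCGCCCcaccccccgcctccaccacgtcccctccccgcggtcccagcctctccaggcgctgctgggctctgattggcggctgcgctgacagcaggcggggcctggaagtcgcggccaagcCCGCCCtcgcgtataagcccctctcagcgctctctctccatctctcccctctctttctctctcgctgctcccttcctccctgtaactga
The FGF18 window is chr5:171419397-171419696 on the plus strand.
FGF18: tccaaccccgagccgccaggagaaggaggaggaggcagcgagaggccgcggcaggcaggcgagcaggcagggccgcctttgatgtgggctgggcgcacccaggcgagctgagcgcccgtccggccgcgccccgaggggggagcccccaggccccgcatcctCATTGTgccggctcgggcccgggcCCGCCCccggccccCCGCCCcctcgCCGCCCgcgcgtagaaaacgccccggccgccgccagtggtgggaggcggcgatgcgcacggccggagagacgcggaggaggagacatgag
The ICAM1 window is chr19:10270870-10271169 on the plus strand.
ICAM1: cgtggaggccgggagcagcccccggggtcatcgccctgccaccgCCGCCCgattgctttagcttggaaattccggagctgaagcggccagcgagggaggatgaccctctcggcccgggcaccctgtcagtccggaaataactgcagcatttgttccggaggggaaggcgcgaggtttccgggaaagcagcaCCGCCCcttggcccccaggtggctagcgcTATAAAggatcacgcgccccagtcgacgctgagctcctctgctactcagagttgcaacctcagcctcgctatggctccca

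LGALS3 (chromosome 14, 55124110 to 55145423, plus strand, hg38) encodes galectin-3, a lectin that binds beta-galactosides. It had 1.52, 5.57 and 1.48 T>C CPM at 0h, 6.71, 12.2 and 5.18 at 3h, and 8.09, 11.7 and 6.21 at 24h. S9CC47_R5 was the highest culture at every time, and its 0h value lay above the 3h value of S9CC47_R6, so these groups overlapped, while the 24h group lay above the 0h group. Over the cultures, the log2 ratio to 0h averaged 1.47 ± 0.39 at 3h (SD, n = 3) and 1.62 ± 0.558 at 24h. The 0h values of this gene rest on 6, 19 and 8 T>C reads.

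COL6A1 (chromosome 21, 45981770 to 46005050, plus strand) encodes a chain of collagen VI, a fibril of the cell-near matrix. Its T>C CPM were 38.2, 44.8 and 30.7 at 0h, 75.1, 74.5 and 57.5 at 3h, and 66.3, 85.2 and 51.7 at 24h. All 3h and 24h values lay above all 0h values, and the later groups overlapped each other. The mean log2 ratio was 0.86 ± 0.124 at 3h and 0.82 ± 0.091 at 24h. Only 4.14% of its reads carried a conversion at 0h. The part of these that would be seen without the label was not measured.

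Of the adhesion receptors, ITGA8 (chromosome 10, 15513954 to 15719922, minus strand), an integrin alpha chain, had 0.505, 0.586 and 3.14 T>C CPM at 0h. It had 1.28, 3.30 and 5.18 at 3h and 2.77, 4.31 and 10.0 at 24h. The groups overlapped because S9CC47_R6 was high throughout, and 0h values in the other cultures rest on 2 reads each. ICAM1 (chromosome 19, 10271093 to 10286615, plus strand), a ligand of leukocyte integrins, had 1, 3 and 9 T>C reads in its 0h libraries, which are 0.293, 0.555 and 2.27 T>C CPM in S9CC47_R5, S9CC47_R6 and S9CC13_R6. Its values were 7.35, 5.36 and 4.03 T>C CPM at 3h and 3.70, 3.80 and 2.74 at 24h. All of these lay above all 0h values, and each culture was lower at 24h than at 3h. Ratios of genes at such counts carry a large counting error and depend on the pseudocount.

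FGF18 (chromosome 5, 171419647 to 171457626, plus strand), a secreted growth factor of bone and cartilage, was among the members with many reads. It had 126, 178 and 142 T>C CPM at 0h, 217, 299 and 230 at 3h, and 326, 369 and 299 at 24h. Both later groups lay above the 0h group, and the lowest 24h value (S9CC47_R6) was level with the highest 3h value (S9CC47_R5). The mean log2 ratio was 0.74 ± 0.042 at 3h and 1.17 ± 0.178 at 24h. IGFBP5 (chromosome 2, 216672105 to 216695549, minus strand), which binds insulin-like growth factors, had 6.32, 2.93 and 7.95 T>C CPM at 0h, 14.7, 9.70 and 12.4 at 3h, and 15.9, 11.7 and 32.0 at 24h. Every value at 3h and 24h was above every 0h value, and S9CC47_R6 stood apart at 24h.

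Among the regulators, RORB (chromosome 9, 74497335 to 74693177, plus strand), an orphan nuclear receptor, had 5.81, 3.52 and 8.87 T>C CPM at 0h. It had 11.8, 7.43 and 15.8 at 3h and 20.6, 13.4 and 22.3 at 24h. Each culture was higher with each later time. S9CC47_R6 was highest and S9CC47_R5 lowest throughout, so the 0h and 3h groups overlapped while the 0h and 24h groups did not. HIC1 (chromosome 17, 2054154 to 2063241, plus strand), a zinc finger repressor, had 1.26, 3.52 and 0.740 T>C CPM at 0h, 2.88, 5.57 and 1.44 at 3h, and 7.62, 10.1 and 2.74 at 24h. The groups overlapped, since S9CC47_R6 was low throughout. Its counts at 0h were 5, 12 and 4 reads, and its span overlaps SMG6 on the opposite strand. Whether the counting used strand is not given in the sources used here, so reads of that gene cannot be told apart from those of HIC1.

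CDKN1C (chromosome 11, 2883213 to 2885775, minus strand), an inhibitor of cyclin-dependent kinases, had 25.8, 22.9 and 18.3 T>C CPM at 0h, 42.8, 55.3 and 38.0 at 3h, and 67.9, 80.1 and 60.1 at 24h. Its 3 groups did not overlap. The mean log2 ratio was 1.00 ± 0.269 at 3h and 1.62 ± 0.212 at 24h. FGD5 (chromosome 3, 14810853 to 14934571, plus strand), an exchange factor for CDC42, had 2.78, 5.28 and 1.11 T>C CPM at 0h, 6.71, 10.1 and 4.03 at 3h, and 5.08, 9.13 and 6.76 at 24h. Its groups overlapped, with S9CC47_R5 the highest culture at all times.

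CHST15 (chromosome 10, 124007668 to 124093598, minus strand), which adds sulfate to chondroitin chains, had 24.5, 24.0 and 29.6 T>C CPM at 0h, 48.6, 61.7 and 48.6 at 3h, and 66.8, 56.8 and 45.8 at 24h. The 3h and 24h groups lay above the 0h group and overlapped each other. FAM126A (chromosome 7, 22889371 to 23014130, minus strand) encodes hyccin, a subunit of the complex that holds a phosphatidylinositol kinase at the plasma membrane. It had 163, 142 and 157 T>C CPM at 0h, 261, 232 and 303 at 3h, and 315, 271 and 337 at 24h. The 0h values again lay below all others, and each culture was higher at 24h than at 3h.

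**Figure D1:**
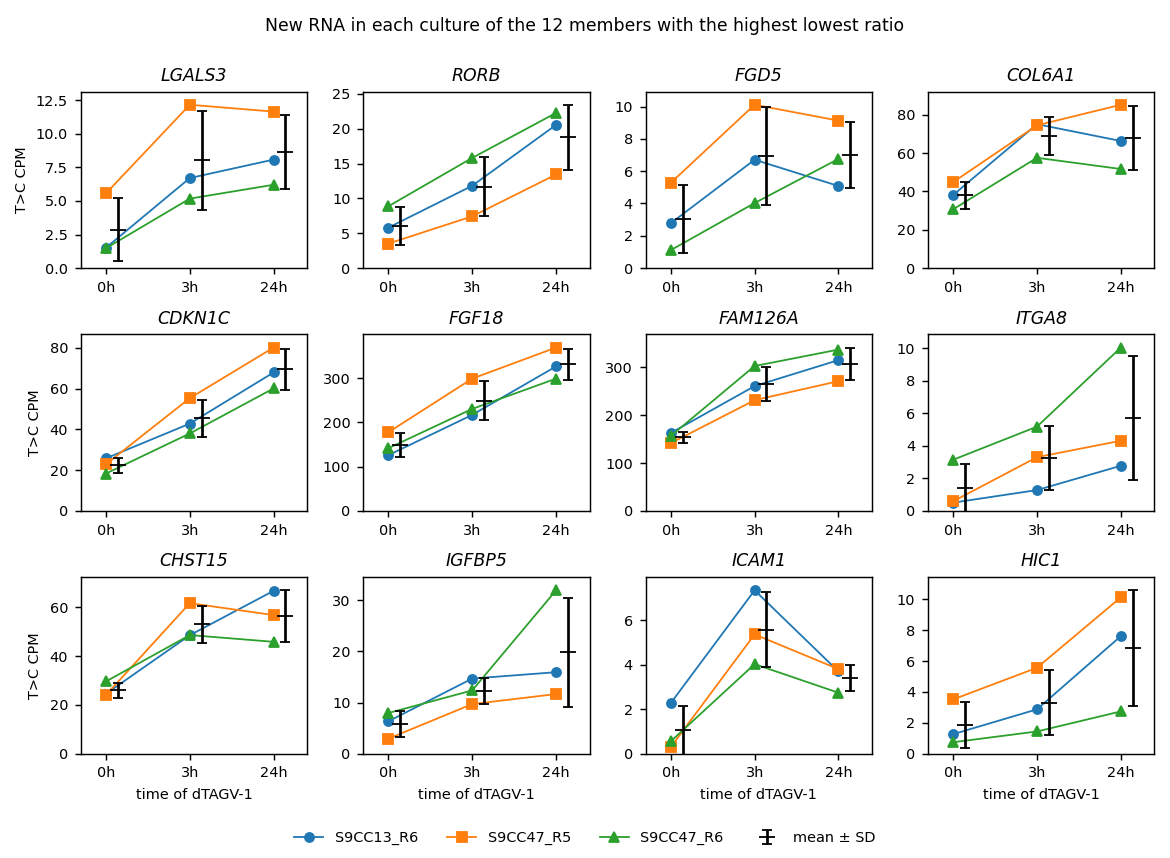
T>C CPM (linear axis from 0, own scale in each panel) at 0h, 3h and 24h of dTAGV-1 for the 12 members with the highest lowest ratio; lines join the samples of a culture and black bars give the mean ± SD of 3. Every line is higher at 3h and 24h than at 0h, as the rule requires, and the cultures start from different levels in LGALS3, ITGA8 and HIC1.

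The members with the highest mean T>C CPM were MSX1, TIMP3, CXXC5 and RND3. MSX1 (chromosome 4, 4859665 to 4863936, plus strand), a homeobox factor of the facial mesenchyme, had 1437, 1767 and 1581 T>C CPM at 0h, 2395, 2960 and 2387 at 3h, and 3351, 4123 and 3753 at 24h. No value of one time overlapped another time, and the mean log2 ratio was 0.69 ± 0.084 at 3h and 1.23 ± 0.015 at 24h. TIMP3 (chromosome 22), an inhibitor of metalloproteinases bound to the matrix, had 762, 698 and 676 T>C CPM at 0h, 1268, 1112 and 1152 at 3h, and 1202, 967 and 997 at 24h. It was above 0h in all samples and lower at 24h than at 3h in each culture. CXXC5 (chromosome 5), a zinc finger protein that acts in BMP and WNT signalling, had 326, 447 and 323 T>C CPM at 0h, 503, 636 and 516 at 3h, and 663, 709 and 595 at 24h. Both later groups of CXXC5 lay above its 0h group. RND3 (chromosome 2), an atypical small GTPase that lowers contractility, had 434, 376 and 336 T>C CPM at 0h, 693, 548 and 439 at 3h, and 626, 580 and 429 at 24h. The 24h group overlapped the 0h group, since S9CC47_R6 at 24h lay below S9CC13_R6 at 0h.

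Over all members, the mean log2 ratio per gene had a median of 0.74 at 3h (range 0.35 to 2.16) and of 0.88 at 24h (range 0.43 to 2.56). Across the 10731 genes at the level of the rule, the medians were -0.013 and 0.011. The groups did not overlap for 54 members at 3h and for 62 at 24h, and this held for 5.48% and 12.3% of the 10731 genes. Since the rule used these ratios, the counts describe the choice. The members' mean T>C CPM ran from 3.34 to 2640 with a median of 28.4, against a median of 41.3 over the 10731. In 18 of the 81, at least 1 library held fewer than 10 T>C reads, and 31 had at least 100 reads in every library. At 0h the cultures differed more in the members than in other genes. The SD of log2 T>C CPM + 0.5 over the 3 cultures had a median of 0.29 for members and 0.184 for the 10731, and the measure was not adjusted for read depth.

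A fit across all genes, whose terms were time, batch and 1 surrogate variable, gave an adjusted size of each change with its error. In the T>C fit that variable was higher at 24h (0.03, 0.08 and 0.54) than at 3h (-0.71, -0.13 and 0.30) in each culture. Fitted changes can therefore lie outside the values of the cultures. For T>C reads at 3h against 0h, 42 of the 81 members were called, each higher (DESeq2, Benjamini-Hochberg adjusted p under 0.1), where 1.01% of 12037 genes tested were called higher. At 24h against 0h, 52 were called, each higher, against 2.38%. With size factors of total reads 31 members were called at 3h, and the calls over all genes went from 121 higher and 95 lower to 88 higher and 187 lower. Nothing is read from these shares, because the rule used these contrasts. Total reads, which hold the T>C reads, gave 37 members called higher at 3h (1.11% of 11710 genes tested) and 63 at 24h (7.11%). In total reads from 3h to 24h, 18 were called higher (2.51%). The counts of members were lower in every fit without 1 of the cultures. Without S9CC13_R6, the T>C reads gave 15 members at 3h (0.323% of all genes were called higher) and 10 at 24h (0.247%), and total reads 17 (0.364%) and 16 (0.667%). Without S9CC47_R6 the numbers were 10 (0.306%) and 10 (0.331%) in T>C reads and 16 (0.864%) and 26 (1.81%) in total reads. Without S9CC47_R5 they were 19 (0.434%) and 32 (1.13%) in T>C reads, and 25 (0.606%) and 44 (3.06%) in total reads. The 18 calls in total reads from 3h to 24h became 2 without S9CC13_R6 (0.398%) and 10 without S9CC47_R5 (0.718%). They became 7 without S9CC47_R6, where the genes called higher in all went from 294 to 589 (5.09%). These are bulk libraries, so more RNA per cell cannot be told apart from a larger share of cells that express a gene.

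**Figure D2:**
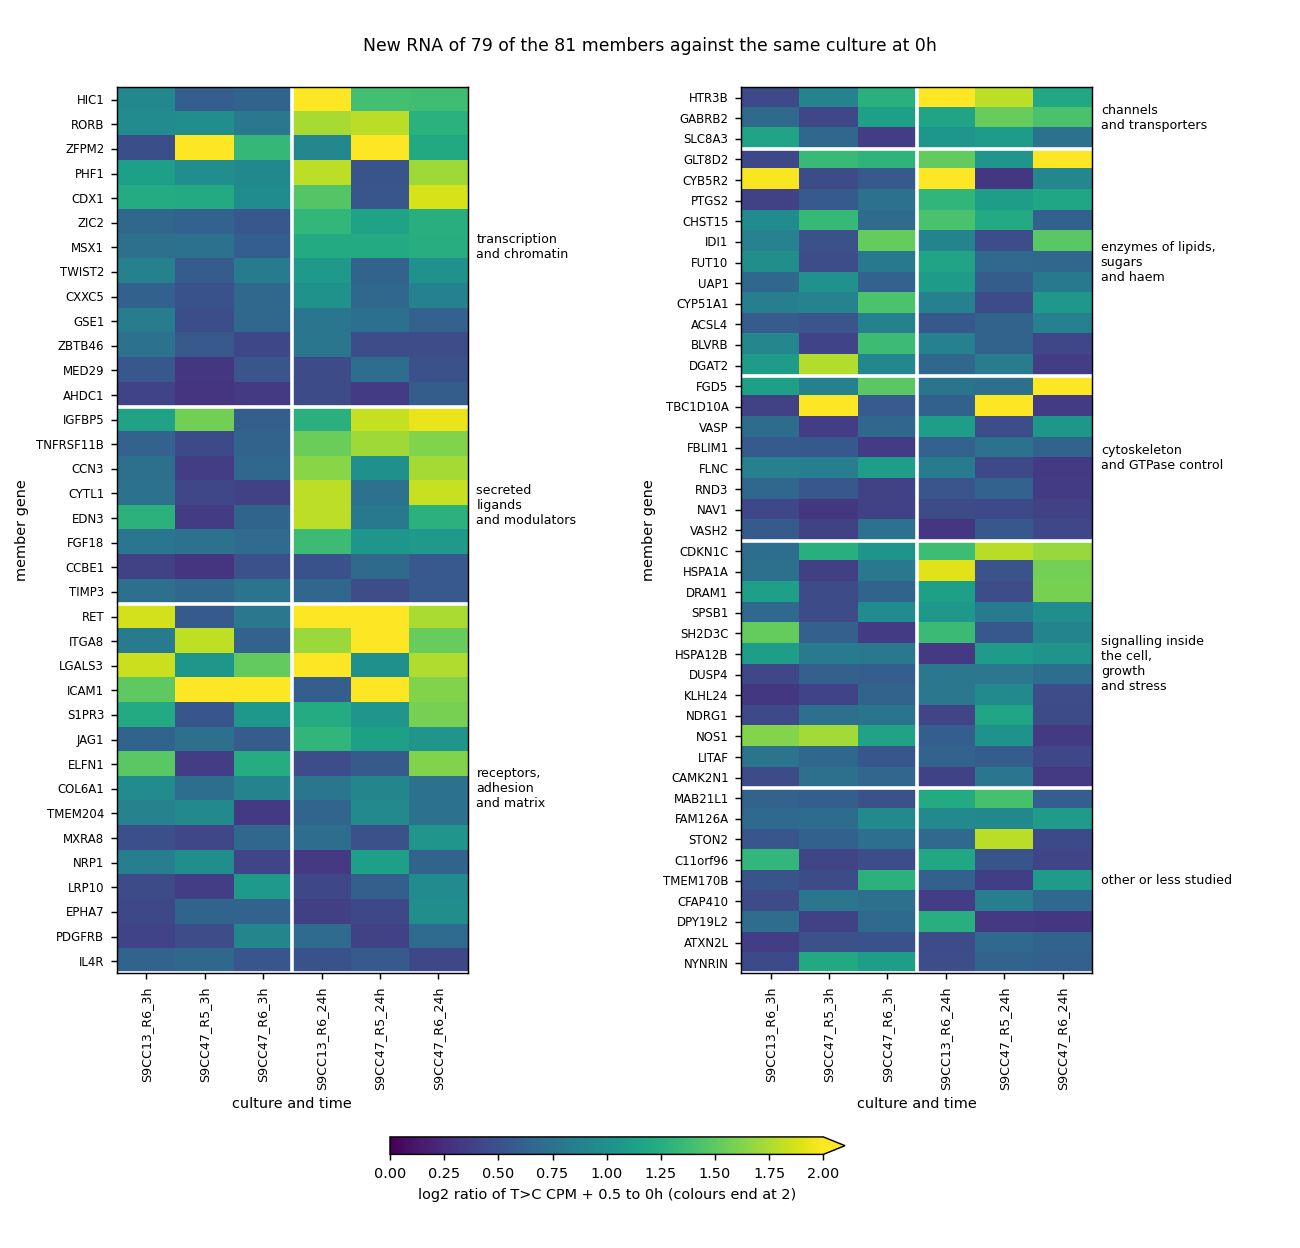
Log2 ratio of T>C CPM + 0.5 to the same culture at 0h, 1 row for each of 79 members grouped by role and 1 column per culture and time, with colours that end at 2. Every cell is at or above 0.3 by the rule, and the span between the lowest and highest ratio of a member is widest in RET, CYB5R2, ICAM1 and ZFPM2.

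The members were grouped by what their products do, with the groups drawn after their values had been seen. Transcription and chromatin held 14 members, with a median log2 ratio of 0.68 at 3h and 1.07 at 24h. They included the homeobox factors MSX1 and CDX1, the bHLH factor TWIST2, the zinc finger factors ZIC2, HIC1, ZBTB46 and the GATA cofactor ZFPM2, the nuclear receptor RORB, the DNA-binding proteins CXXC5 and AHDC1, the corepressor component GSE1, the Polycomb-associated PHF1 and the Mediator subunit MED29. Means per gene lay between 0.35 and 1.36 at 3h, and between 0.47 and 1.67 at 24h. GSE1 and ZBTB46 overlap GINS2 and SLC2A4RG on the opposite strand.

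Secreted ligands and modulators held 9 members, with a median log2 ratio of 0.72 at 3h and 1.30 at 24h. FGF18 and the endothelin EDN3 are ligands of receptors, and EDN3 is known for its part in melanocyte and enteric neural crest. TNFRSF11B encodes osteoprotegerin, a decoy that binds the osteoclast factor RANKL. IGFBP5, CCN3, CYTL1, CCBE1 and TIMP3 bind factors or matrix. The range at 24h ran from 0.56 to 1.68.

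Receptors, adhesion and matrix was the largest role with 15 members and medians of 0.75 at 3h and 0.82 at 24h. It held receptors for growth factors and guidance cues (RET, PDGFRB, NRP1, EPHA7), the Notch ligand JAG1, the sphingosine-1-phosphate receptor S1PR3, the interleukin receptor IL4R, the adhesion proteins ICAM1, ITGA8, MXRA8 and ELFN1, the membrane proteins LRP10 and TMEM204, and COL6A1 and LGALS3. RET, the receptor of GDNF-family ligands, had the highest mean log2 ratio of any member at 24h, 2.56 ± 0.724, and ICAM1 had the highest at 3h, 2.16 ± 0.695. Both values were singled out after they had been seen.

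Enzymes of lipids, sugars and haem (11 members) had a median of 0.97 at 3h and 0.84 at 24h. IDI1 and CYP51A1 make sterols, ACSL4 and DGAT2 act on fatty acids and triglycerides, and PTGS2 starts the synthesis of prostaglandins. CHST15, UAP1, FUT10 and GLT8D2 act on sugars, and BLVRB and CYB5R2 are reductases. Cytoskeleton and GTPase control (8 members, among them the actin cross-linker FLNC, the actin elongation factor VASP and the filamin-binding FBLIM1) had medians of 0.58 and 0.60.

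Signalling inside the cell, growth and stress (12 members) had a median of 0.68 at 3h and 0.80 at 24h. The kinase phosphatase DUSP4, the nitric oxide synthase NOS1, the CaMKII inhibitor CAMK2N1 and the heat shock proteins HSPA1A and HSPA12B were in it. HSPA1A shares nearly all its sequence with HSPA1B, and DPY19L2 also has near copies, so their reads may be divided between copies. Channels and transporters (3 members, HTR3B, GABRB2 and SLC8A3) had medians of 0.75 and 1.38. The last 9 members have other or less studied products and had medians of 0.66 and 0.70.

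Of 19 gene lists, 6 held a member. For the counts below, 121 of all 12037 genes tested were called higher (1.01%) and 95 lower at 3h in T>C reads. At 24h 287 were called higher (2.38%) and 312 lower. The lists were not tested as sets. The sterol synthesis and uptake list had 17 of its 23 tested genes called higher at 3h in T>C reads (DESeq2) and 6 at 24h, and IDI1 and CYP51A1 were among its members. IDI1, which isomerises isopentenyl diphosphate, had 87.2, 112 and 74.9 T>C CPM at 0h, 162, 159 and 217 at 3h, and 164, 155 and 211 at 24h. CYP51A1, the lanosterol demethylase, had 69.7, 75.03 and 58.1 T>C CPM at 0h, 127, 140 and 158 at 3h, and 129, 104 and 122 at 24h. Both had all values at 3h and 24h above all 0h values. Fitted log2 fold changes of the list had a median of 0.73 at 3h and 0.16 at 24h.

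On the cranial neural crest list, 3 of 18 tested genes were called higher at 3h, and 10 were called higher and 1 lower at 24h. MSX1, described above, was among its members.

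The FGF and ERK feedback list (18 tested) had 2 genes called higher and 3 lower at 3h, and 6 higher and 3 lower at 24h. DUSP4, which removes phosphate from ERK, had 131, 125 and 138 T>C CPM at 0h, 176, 192 and 209 at 3h, and 227, 217 and 228 at 24h. SPSB1, a SOCS-box adaptor of a ubiquitin ligase, had 23.2, 26.7 and 23.7 at 0h, 37.7, 36.7 and 46.9 at 3h, and 49.2, 47.7 and 47.1 at 24h. For DUSP4 and SPSB1 the 3 times did not overlap.

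In the Notch pathway list 2 of 13 tested genes were called higher at 3h and 3 at 24h, and JAG1 was a member. JAG1 had 25.5, 29.6 and 24.6 T>C CPM at 0h, 40.3, 49.7 and 37.1 at 3h, and 64.5, 65.7 and 51.3 at 24h, with no overlap between times. The axon guidance list (33 tested) had 0 genes called at 3h by DESeq2, 5 at an unadjusted p under 0.05 and 1 called by edgeR, and at 24h 4 were called higher and 3 lower by DESeq2. Its members EPHA7 and NRP1 are receptors for ephrins and semaphorins. EPHA7 had 19.5, 13.8 and 17.4 T>C CPM at 0h, 26.5, 21.9 and 27.3 at 3h, and 25.4, 18.8 and 34.9 at 24h. NRP1 had 19.2, 10.8 and 17.6 at 0h, 35.1, 22.1 and 23.6 at 3h, and 24.3, 24.3 and 27.6 at 24h. At 3h both lay above all their 0h values, and at 24h this held for NRP1 but not for EPHA7, whose S9CC47_R5 value was lower than its 0h value in S9CC13_R6. Neither was called at 3h (DESeq2 adjusted p = 0.352 for EPHA7 and 0.223 for NRP1).

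From the list of SOX9 and cartilage genes, CYTL1 was the member. CYTL1, a small secreted protein of cartilage, had 3.03, 6.16 and 1.85 T>C CPM at 0h, 5.43, 8.46 and 2.59 at 3h, and 11.8, 10.7 and 7.85 at 24h. The 24h group lay above the 0h group, and the 3h group overlapped both. Of the 15 genes of that list tested, 1 was called lower at 3h, and 5 were called lower and 1 higher at 24h.

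The other 13 lists held no member. Their counts at 24h stand beside 287 genes called higher and 312 lower of all 12037 tested, and nothing is read from 1 call in a list. At 24h, T>C reads of BMP and TGF-beta target genes were called higher for 7 of 20 tested and lower for 2, and those of immediate early genes higher for 5 of 26 and lower for 1. WNT target genes had 1 of 12 called higher, osteogenic markers 2 of 7 higher, and retinoid genes 2 of 12 higher and 3 lower. Glial and Schwann cell markers had 1 of 4 higher and 2 lower. Neuronal markers (10 tested), smooth muscle markers (6), pluripotency markers (3), p53 target genes (20), and ATF4 and unfolded protein response genes (20) each had 1 gene called lower. Melanocyte markers (2 tested) and circadian clock genes (16) had median fitted log2 fold changes of -0.18 and 0.10. The osteogenic markers also moved in total reads, where their summed CPM lay between 229 and 266 in the 0h group, 205 and 290 in the 3h group, and 331 and 470 in the 24h group. In that list 5 of 10 measured genes had a mean of at least 1 total CPM, COL1A2 held 345 of the CPM at 24h, and IBSP, SPP1 and DMP1 were at or near 0. Their part in the members' values was not tested.

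The T>C share of a gene is the percent of all its reads with a conversion. At a steady RNA level it is higher where RNA turns over faster. It also rises when more RNA of the gene is made, so a rise after 0h is not a measure of turnover. The median share over members was 33.6% ± 1.02 in the 0h group (SD, n = 3), 37.6% ± 2.29 in the 3h group and 40.5% ± 2.21 in the 24h group. Over the 10731 genes it was 28.1% ± 1.14, 25.7% ± 2.43 and 29.3% ± 1.25. At 0h, 45 of the 81 members were above the median of all genes, 33 were above its upper quartile (42.0%) and 17 below its lower quartile (17.6%), so that the members spanned both ends. The lowest share was 2.94% in BLVRB and the highest 72.0% in MAB21L1. By role, the median share at 0h was 42.8% in transcription and chromatin, 33.8% in secreted ligands and 26.3% in signalling and stress.

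**Figure D3:**
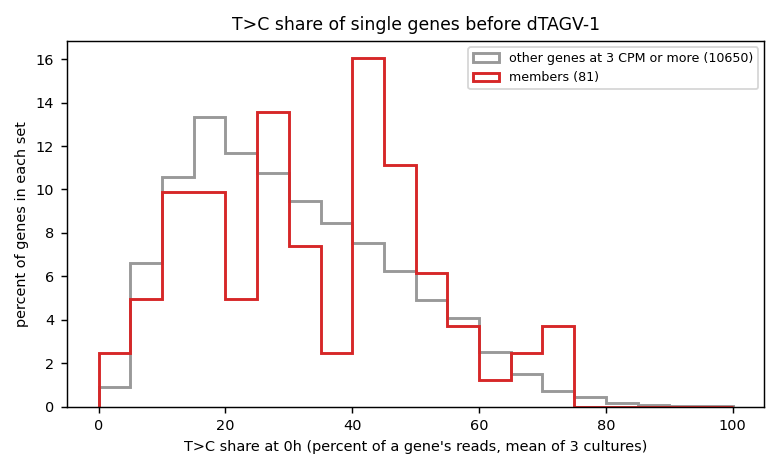
Percent of genes (y axis) in bins of 5 points of the T>C share at 0h, mean of 3 cultures (x axis), for the 81 members and the other genes with at least 3 T>C CPM. The median was 33.8% for the members and 28.2% for all genes, and members occur from the lowest bin to the bin that ends at 75.

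Within cultures, the T>C share was higher than at 0h in all 3 cultures for 32 members at 3h and for 53 at 24h, against 3.45% and 24.6% of the 10731 genes. It was lower in all 3 for 11 members at 3h, against 34.5%. The T>C reads that chose the members are part of this share, so it is given with no test. At 24h the mean change was largest in ICAM1, at 40.4 percentage points. This gene had 1 T>C read in its lowest library, the fewest of any member, and was singled out after its value had been seen.

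Reads without a conversion were not used to choose the members, although they come from the same libraries. They also hold new RNA in which no conversion was read, in a part that was not measured. Their mean log2 ratio to 0h had a median over members of 0.40 at 3h and 0.58 at 24h, against 0.03 and 0.033 over the 10731 genes. The ratio was above 0 in all 3 cultures for 50 members at 3h (18.0% of all genes) and for 65 at 24h (22.9%). Fitted log2 fold changes of the 80 members with enough unconverted reads lay between -0.29 and 1.66 at 3h, and between -0.22 and 2.88 at 24h. For MSX1 the fitted change in unconverted reads was 0.72 (SE 0.072) at 3h, beside 0.70 (SE 0.0748) in T>C reads. For COL6A1 it was -0.08 (SE 0.0792) at 3h and 0.45 (SE 0.0824) at 24h, beside 0.80 (SE 0.165) and 0.94 (SE 0.17) in T>C reads.

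The change of unconverted reads from 3h to 24h is a contrast that the rule did not use. It is not independent of the choice, however. Members were chosen for more new RNA at 3h and 24h, and unconverted reads at 24h include RNA made after 3h. Unconverted reads at both times also hold new RNA in which no conversion was read. Of 80 members tested, 16 were called, each higher at 24h than at 3h, where 2.34% of 11529 genes tested were called higher (DESeq2, adjusted p under 0.1). At an unadjusted p under 0.05, 24 members were higher, against 7.32% of all genes. The median fitted log2 fold change was 0.21 over the members tested and 0.005 over all genes, and 61 of the 80 were above 0 (51.3% of all genes). In 15 of the 16 the value was higher at 24h in all 3 cultures, with CCN3 the exception. Secreted ligands and modulators, with 9 members tested, supplied 6 of the 16, but the roles were drawn after the values had been seen. The count was 2 without S9CC13_R6, 5 without S9CC47_R5 and 6 without S9CC47_R6, and in those fits 0.459%, 0.484% and 3.57% of all genes were called higher. With size factors of total reads the count was 14, and the calls over all genes went from 270 higher and 259 lower to 180 higher and 380 lower. The replicate block, with culture in place of batch and surrogate variable, called 19 members, 13 of them among the 16, beside 6.06% of all genes.

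TNFRSF11B, COL6A1, MSX1 and MXRA8 were among the 5 of lowest adjusted p. TNFRSF11B had 21.1, 11.98 and 14.3 unconverted CPM at 3h and 37.8, 25.1 and 28.6 at 24h, after 13.4, 9.67 and 9.33 at 0h. The 24h values were above all others, and the fitted log2 fold change from 3h to 24h was 1.17 (SE 0.171, DESeq2 adjusted p = 3.46e-09). In T>C reads this gene had 69.0, 51.3 and 50.7 CPM at 0h, 107, 70.2 and 78.8 at 3h, and 203, 169 and 157 at 24h. Every time was separate from the other two.

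COL6A1 had 199, 234 and 188 unconverted CPM at 0h, 211, 217 and 187 at 3h, and 293, 301 and 246 at 24h. The 0h and 3h groups overlapped and the 24h group lay above both, with a fitted change from 3h of 0.53 (SE 0.0876, DESeq2 adjusted p = 4.56e-07). Its T>C CPM were above 0h in every culture at 3h, while its unconverted CPM were not. MSX1 had 403, 396 and 383 unconverted CPM at 0h, 674, 715 and 627 at 3h, and 854, 893 and 851 at 24h, a change from 3h of 0.41 (SE 0.0794, DESeq2 adjusted p = 3.62e-05). All 3 groups were separate.

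MXRA8, an adhesion protein of the immunoglobulin family, had 14.8, 15.1 and 12.3 unconverted CPM at 3h and 25.5, 20.2 and 20.7 at 24h (log2 fold change 0.80, SE 0.188, DESeq2 adjusted p = 0.00164). At 0h it had 16.1, 9.38 and 14.2, which overlapped the 3h values. MXRA8 had 10.1, 6.16 and 6.29 T>C CPM at 0h, 14.4, 8.46 and 10.4 at 3h, and 16.9, 8.87 and 13.5 at 24h, with overlap between all times. Over the 11 alternatives to the DESeq2 fit, the highest adjusted p was 0.0317 for COL6A1 and 0.049 for MSX1, while TNFRSF11B (0.276) and MXRA8 (0.403) lost the call in at least 1 of them.

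**Figure D4:**
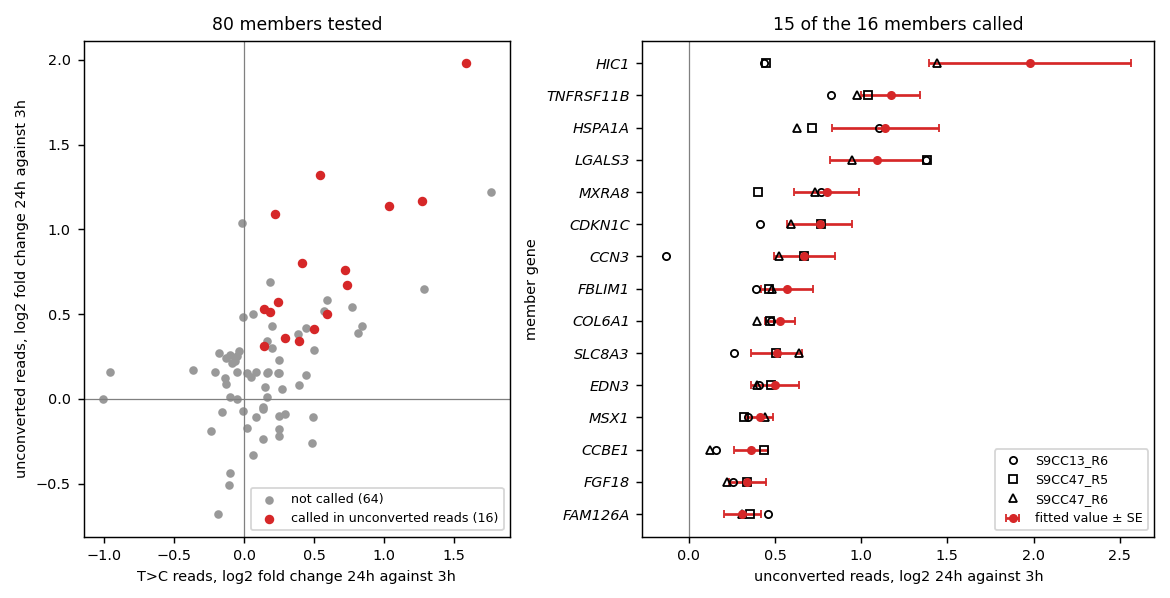
Left, fitted log2 fold change from 3h to 24h in unconverted reads (y axis) and in T>C reads (x axis) for the 80 members tested, with the 16 called in unconverted reads in red. Right, 15 of those 16 with the fitted value ± SE and the log2 difference in each culture. All fitted values lie above 0. Those of HIC1 (1.98), TNFRSF11B (1.17), MXRA8 (0.80) and COL6A1 (0.53) are above the value of each of their cultures.

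Between 3h and 24h the T>C reads of the members went different ways. Within cultures, 32 members were higher at 24h than at 3h in all 3 (24.5% of all genes), 7 were lower in all 3 (21.0%) and 42 were mixed. The 7 were ICAM1, TIMP3, IL4R, LITAF, DGAT2, NOS1 and FLNC. NOS1 had 17.7, 14.7 and 28.8 T>C CPM at 0h, 55.6, 49.5 and 64.7 at 3h, and 27.0, 30.4 and 36.7 at 24h. At 3h it was above every other value, and at 24h the group overlapped that of 0h. The 32 included CDKN1C, FGF18, MSX1, JAG1, RET, ZIC2, TNFRSF11B, PTGS2, CCN3 and EDN3. RET had 2.53, 2.35 and 4.44 T>C CPM at 0h, 10.5, 3.71 and 8.05 at 3h, and 20.3, 24.6 and 16.1 at 24h. Its 24h group lay above the others. Fitted T>C changes from 3h to 24h ran over the members from -1.01 in DGAT2 to 1.76 in RET, with a median of 0.17. NOS1 and RET were singled out for this pattern, so these values are a description.

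Promoters of 60 of the 81 members were matched in the RefSeq table, and 9895 of the genes tested. The SOX motif ACAATG was in 2 of the 60 (3.33%, FGF18 and VASP) and in 5.97% of all. AP-1 (TGANTCA) was in 2 (3.33%, KLHL24 and NOS1) against 4.14%, and CRE (TGACGTCA) in 0 against 3.42%. The TATA box TATAAA was in 5 (8.33%, HSPA1A, ICAM1, MAB21L1, PTGS2 and RND3) against 5.45%, and the GC box GGGCGG in 46 (76.7%) against 71.3%. CCAAT was found in 22 (36.7%) against 37.3%. E-box letters CANNTG were in 23 (38.3%) against 59.1%, and the narrower CACGTG, which is a case of CANNTG, in 1 (1.67%) against 10.2%. The median GC content of the windows was 67.7% for members and 65.7% for all. All motifs were searched on both strands, and a match of letters is not a binding site.

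With only a pair of cultures, the rule took in more genes. It gave 197 genes without S9CC13_R6, 259 without S9CC47_R5 and 220 without S9CC47_R6. In each case the 81 members are those of them that also reached 0.3 at both times in the culture left out, which is the rule itself, so the members are 41.1%, 31.3% and 36.8% of these genes. The lowest ratio of a member was most often that of S9CC47_R5 at 3h, for 26 of the 81.

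Members just inside the threshold were AHDC1, with a lowest log2 ratio of 0.301, CCBE1 (0.306) and MED29 (0.316), each in S9CC47_R5 at 3h. AHDC1 had 189, 252 and 223 T>C CPM at 0h, 250, 311 and 283 at 3h, and 261, 321 and 336 at 24h. CCBE1, a matrix protein needed for lymphatic growth, had 166, 84.7 and 136 at 0h, 216, 105 and 192 at 3h, and 235, 137 and 201 at 24h. MED29 had 35.4, 33.7 and 29.2 at 0h, 51.8, 42.1 and 42.3 at 3h, and 49.0, 56.0 and 41.5 at 24h. Of these, MED29 alone had no overlap of 0h with later times. Just outside were AEBP1 (0.299), XIRP2 (0.298) and NYAP1 (0.297), which had mean T>C CPM of 8.55, 3.77 and 3.46. The log2 ratios of AEBP1 were 1.04, 0.85 and 0.36 at 3h and 0.88, 0.30 and 0.38 at 24h. XIRP2 had ratios of 0.30, 1.81 and 0.64, then 0.62, 2.31 and 0.61. NYAP1 had 1.02, 0.30 and 1.06, then 1.89, 0.41 and 0.84. Each missed 0.3 in 1 sample.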

How the data were processed

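SLAM-seq libraries of 9 samples were analysed (3 times, 3 cultures), grouped by the sample titles. The authors deposited raw counts, in a table of all reads and a table of T>C reads for each gene. Per the study's methods, adapters and poly(A) were removed from read 1, then slamdunk did the mapping and counting. The submitters' processing notes name hg38. No molecular identifiers were stated, so reads are not independent molecules, and strand use in counting is not given in the sources used here. Unconverted reads are total minus T>C reads. CPM were computed from the deposited counts by column sums. No value column of either table was left unused (0).

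Genes were tested with DESeq2 1.42.0 (R 4.3.3) on raw counts of all 9 samples, with time, batch and 1 surrogate variable (svaseq, sva 3.50.0), for protein-coding genes (GENCODE 44) with at least 1 CPM in 3 samples, independent filtering off and adjusted p under 0.1, after the study's methods. The test script was checked on simulated unconverted reads for 24h against 3h only. T>C reads, small changes and changes in genes with few reads were not simulated. P-values rest on the scatter of the 9 samples that is left after time, batch and the surrogate variable. No term of that fit held the pairing by culture. The cultures come from 2 clones and 2 batches. The members, gene lists and tests were chosen with earlier results of these data known. Values in every sample are given for the 12 members with the highest lowest ratio, the 4 with most T>C CPM, members on a gene list, the 5 of lowest adjusted p among members called in unconverted reads from 3h to 24h, and the 3 genes on each side of the threshold (log2 ratios only for those outside). Of these, 2 members are not reported here. Others are given by range and count, or are named as chosen after their values were seen.

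Cultures pair the samples across times, by clone and batch in the titles. Deviations from the group means correlated within cultures at 0.138 on average (9 pairs, 0.00164 to 0.332). Alternatives were edgeR 4.0.16, TMM factors, culture as a replicate block, no surrogate variable, no filter, adjusted p under 0.05, only the 6 samples compared, each culture left out, size factors of total reads, and other pseudocounts, levels, ratios and scalings of the rule.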

Additional observations from a re-analysis of the deposited data

Results flagged for a closer look

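Unconverted reads were called higher at 24h than at 3h for 16 of 80 members tested (DESeq2, adjusted p under 0.1). Over all 11529 genes tested, 2.34% were called higher. The contrast is not independent of the choice of members, since unconverted reads at 24h include RNA made after 3h. The count of members was 2 without S9CC13_R6, 5 without S9CC47_R5 and 6 without S9CC47_R6 (0.459%, 0.484% and 3.57% of all genes called higher). The samples hold no vehicle group matched to 3h or 24h, so other differences between the times cannot be told apart from the treatment. Values are given for 15 of the 16 members. The log2 fold changes were 1.17 for TNFRSF11B, 0.53 for COL6A1, 0.41 for MSX1, 0.80 for MXRA8, 1.09 for LGALS3, 0.76 for CDKN1C and 0.67 for CCN3. They were 0.36 for CCBE1, 0.57 for FBLIM1, 1.14 for HSPA1A, 0.50 for EDN3, 0.51 for SLC8A3, 1.98 for HIC1, 0.34 for FGF18 and 0.31 for FAM126A. Under all 11 alternatives the 16 values stayed above 0. Without the surrogate variable the value was 0.97 for TNFRSF11B, 0.47 for COL6A1, 0.65 for MXRA8, 0.78 for HIC1 and 0.33 for CCN3. In that fit LGALS3 (1.36) and FAM126A (0.39) were higher than in the reported fit. COL6A1 and MSX1 were called in each alternative, while CCN3, CCBE1 and HIC1 were not called with culture as a replicate block (adjusted p = 0.235, 0.163 and 0.279). HIC1 has an overlapping gene on the opposite strand and HSPA1A has a near-identical copy.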

How the results depend on the processing

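Of 91 recomputed counts and shares, 65 moved by less than 1.5 times (counts) or 1 SD (shares). The 81 members became 148 at a ratio of 0.2, 23 at 0.5 and 197 to 259 with 1 culture left out. With T>C reads scaled by size factors of total reads the rule gave 54 genes, 50 of them members. By total-read sums it gave 61, 47 of them members. Under those scalings the median log2 ratio of all genes was -0.13 and -0.116 at 3h and 0.07 and 0.109 at 24h. Under the rule it was -0.013 and 0.011. All 81 members stayed above 0 in every culture, but this is no check of the scaling. A new scaling shifts the genes of a library together, and the medians moved by less than the lowest ratio that the rule allows. The outcome was therefore largely set by the choice of members. Only the 6 samples compared gave 25 members in T>C reads at 3h (42 in the reported fit, 0.561% of all genes called higher), 22 in total reads at 3h (37, 0.459%) and 11 in total reads from 3h to 24h (18, 2.18%). With 1 culture left out, the counts were 10 to 19 and 10 to 32 for T>C reads at 3h and 24h, 16 to 25 and 16 to 44 for total reads, 2 to 10 for total reads from 3h to 24h and 2 to 6 for unconverted reads, with the shares of all genes given beside those counts in the results above. The summed share of the members was 37.4% at 0h and 42.7% at 24h. The cause of these changes was not tested. With the replicate block T>C reads gave 39 (0.831%) and 53 (2.91%) members, total reads 33 (0.700%) and 60 (7.35%), with 24 (7.23%) for total reads from 3h to 24h and 19 (6.06%) for unconverted reads, all within 1.5 times. Low counts limit the ratios of the 18 members with a library under 10 T>C reads.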
